A study of Rattus norvegicus with 17 samples.

Results

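The comparison of the supplemented with the deprived vitamin D diet used 11 of the 17 arrays of the series, chosen by the diet named in each array's title. They were 6 arrays of CD4+ T cells from DA rats fed 10 IU of vitamin D (supplemented) and 5 from DA rats fed 0 IU (deprived). The other 6 arrays, from rats fed 2 IU (regular), entered the same model, and their values are set beside the comparison. Across genes, 10879 of the 14506 genes with a symbol of their own on the array were tested.

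The series asked how dietary vitamin D acts on the transcriptome of CD4+ T cells in experimental autoimmune encephalomyelitis (EAE), a model of multiple sclerosis. Every rat was a female of the inbred Dark Agouti strain, age matched, and was immunized with myelin oligodendrocyte glycoprotein (MOG), so all diets share the strain and the immunization, and no unimmunized group is used here. The diets began 5 weeks before immunization and were kept to the end, and the T cells were sorted by FACS (fluorescence-activated cell sorting) from lymph nodes taken 7 days after it. No sort for antigen specificity is described, and 250 ng of total RNA per sample was labelled for a whole-transcript array. Neither the rats' age nor the amount of feed behind the IU is stated in the sources. The titles call the replicates biological but do not say how many rats gave each sample, so a p-value here weighs a change against the scatter among such samples, part of which may be technical.

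Vitamin D is turned into its hormone, calcitriol, by hydroxylation in the liver and kidney and in activated immune cells. Calcitriol binds the vitamin D receptor (Vdr), which pairs with a retinoid X receptor on DNA, and the enzyme Cyp24a1, its best known target, breaks the hormone down again. In a draining lymph node after immunization, CD4+ T cells that meet their antigen enlarge, make protein, divide and take on helper fates, while surface molecules such as CD69 hold them in the node before they leave for the tissue. Calcitriol is known in culture for restraining T cell division and for shifting cytokines from the T helper 1 and 17 types towards the T helper 2 and regulatory types.

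T cells of supplemented rats had lower levels of most tested chaperone, cell cycle, protein synthesis, proteasome and respiratory genes than those of deprived rats in the values as deposited, and no rise reached 2-fold. All values are log2 expression values as deposited, and a change is the supplemented mean minus the deprived mean. In limma with Benjamini-Hochberg adjustment at 0.05, 5132 of 10879 genes passed (47.2%). Of these, 2019 were higher with supplementation (18.6% of genes tested) and 3113 were lower (28.6%). By more than 2-fold 58 genes changed (0.533%), and every one of the 58 was lower. Past 1.5-fold there were 15 rises and 623 falls. The arrays of both diets did not overlap for 2625 genes (24.1%), with 696 higher (6.4%) and 1929 lower (17.7%) on every supplemented array. In the deposited values the change ran with the level of the gene: in the brightest of 10 equal groups of genes by level (deciles) 755 of 1088 fell and 24 rose, with a median change of -0.29, whereas in the dimmest 348 rose and 18 fell, with a median of 0.14. After quantile normalization, which gives all arrays the same distribution, the split by level was smaller: 348 were lower and 217 higher in the brightest decile (median -0.05), and 51 lower and 69 higher in the dimmest (median 0.02).

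**Figure D1:**
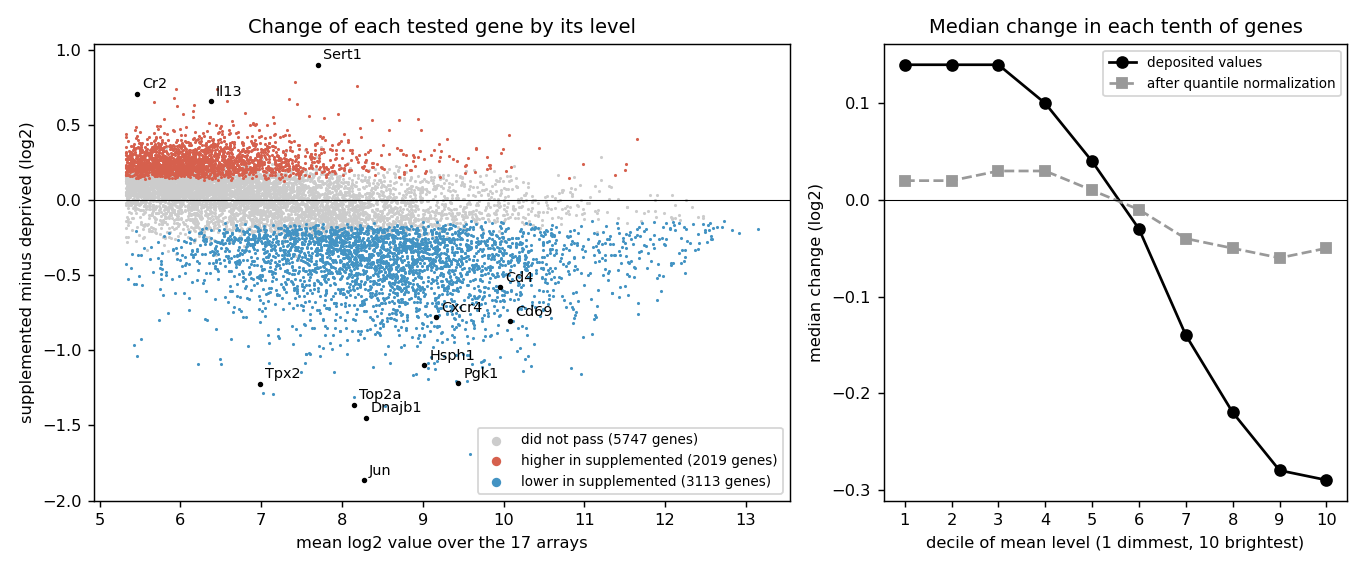
Left, the change of each tested gene (supplemented minus deprived, log2) against its mean log2 value over the 17 arrays, with genes that rose or fell coloured and 12 genes named. Right, the median change in each decile of genes by level, as deposited (circles) and after quantile normalization (squares); the median goes from 0.14 in the dimmest decile to -0.29 in the brightest, and from 0.02 to -0.05 after quantile normalization.

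This dependence on level went with a narrower range of values on the supplemented arrays. The spread of an array (the SD over its transcript clusters) was 1.943 ± 0.0271 (SD, n = 6) on the supplemented diet, 2.051 ± 0.0166 (SD, n = 5) on the deprived diet and 2.026 ± 0.022 (SD, n = 6) on the regular diet. The difference between supplemented and deprived arrays was -0.108 (two-sided exact permutation p = 0.00216, the smallest these group sizes allow), and their spreads did not overlap. Quantile normalization gave 3567 calls (32.8%), 1458 higher (13.4%) and 2109 lower (19.4%). Of these, 2773 were also called as deposited, all 2773 in the same direction (54% of the deposited calls and 77.7% of those after quantile normalization), and 794 were called only after it. With the spread as a covariate 0 genes passed in limma (1206 at an unadjusted p under 0.05, against 6006 without the covariate). Since the spreads of both diets do not overlap, array spread and diet cannot be told apart. Each array centred on its own median moved the median change of all genes from 0.00105 to -0.103, and the share of calls that were higher went from 39.3% to 12.7%. Supplemented replicates 2 and 5 lay farthest along the first principal component (51.7% of the variance) and had the smallest spreads; without both, 3660 genes passed, 1143 higher and 2517 lower.

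The sorted cells carried the markers of CD4+ T cells on every array. Cd3g (12.018 supplemented, 12.215 deprived), Cd3d (11.583 and 11.99), Cd3e (10.413 and 10.648) and Cd247 (9.533 and 9.899), which encode the signalling chains of the T cell receptor complex, were among the brighter genes. Cd4, the coreceptor used for the sort, read 10.34, 10.19, 10.16, 10.04 and 10.04 on the deprived arrays and 9.01 to 9.88 on the supplemented arrays, with a median of 9.71. No supplemented array reached the lowest deprived one, and Cd4 fell by 0.58 (SE 0.11, 1.5-fold, adjusted p = 0.000315). Cd3e fell by 0.23 (SE 0.08, adjusted p = 0.0221), a direction that turned to 0.02 with quantile normalization and 0.03 with cyclic loess, and the call was lost without deprived replicate 2 or 3 or supplemented replicate 5 (adjusted p up to 0.0697). In RNA from bulk sorted cells, fewer cells of a type and less RNA per cell cannot be told apart.

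Some markers of other lymph node cells rose in the deposited values. B cell and macrophage markers are given here and the other groups below. Of 9 B cell markers tested, 6 rose, Cd22 fell and 2 did not pass, with a median change of 0.36, and their summed linear level was 703.9 to 892.6 on supplemented arrays and 658.3 to 759.6 on deprived arrays. Of 14 macrophage, monocyte and neutrophil markers 4 rose (28.6%), 0 fell and 10 did not pass (median 0.13). Their sums were 1394 to 1684 against 1233 to 1393, which do not overlap. Among all genes at levels of 6.32 to 6.69, near the macrophage marker mean of 6.33, 29% rose (median 0.10). At levels of 5.99 to 6.32, around the B cell marker mean of 6.14, 36% rose (median 0.14). The macrophage median was 0.04 after quantile normalization, 0.03 after cyclic loess and after median centring, and 0.02 after division by spread. The defining markers Ms4a1 of B cells and Itgam and Adgre1 of macrophages lay under the level filter of 5.321. With the B cell marker mean as a covariate 3986 genes passed, and with the macrophage marker mean 2369, of which 549 were higher and 1820 lower. Both means followed the diet closely. The B cell mean was 6.12 to 6.5 on supplemented and 5.99 to 6.17 on deprived arrays, and the macrophage mean 6.35 to 6.51 and 6.18 to 6.36. Neither covariate can therefore be fully told apart from diet.

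**Figure D2:**
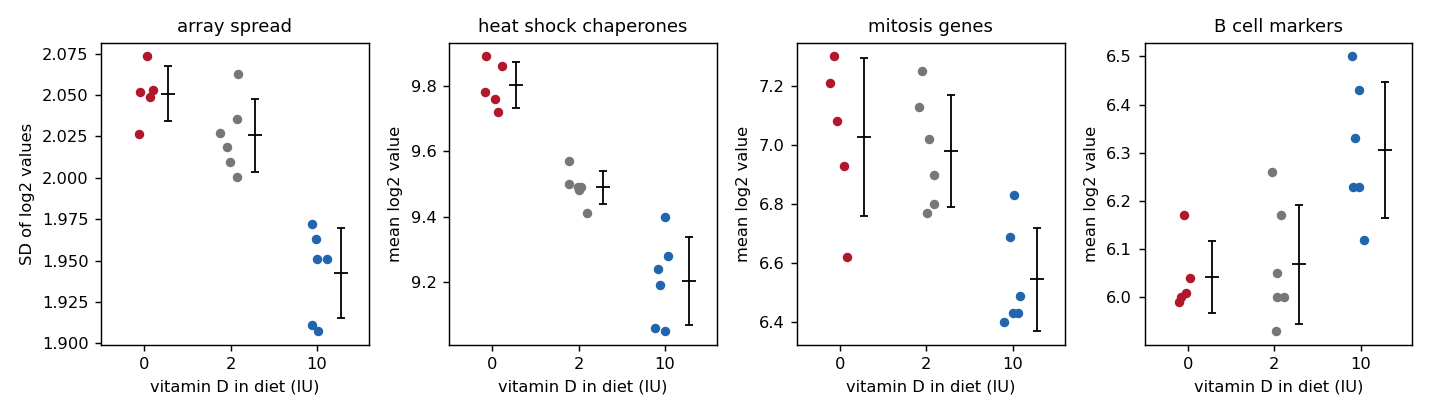
Each point is 1 array, placed by the IU of vitamin D in the diet; bars give the mean and SD of the diet. From left to right: array spread, and the mean log2 value of the tested heat shock chaperones, of the mitosis genes and of the B cell markers. The heat shock means lie at 9.05 to 9.4 on the supplemented arrays and at 9.72 to 9.89 on the deprived arrays, with no overlap, while mitosis and B cell means of both diets overlap.

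Genes were grouped into 36 lists that held 1174 distinct symbols, of which 1037 distinct genes were measured. Some genes were in more than 1 list. For each list the counts of members that passed are given beside the shares over all genes tested, 18.6% higher and 28.6% lower, and its median beside that of all genes, 0.00105. A list of bright genes was more likely to hold falls than rises, as the deciles of level show, so the median after quantile normalization is given too, with the counts of calls for the lists where these changed most. With array spread as a covariate 0 members of the 36 lists passed. The medians were then -0.34, -0.35 and -0.26 for the heat shock, CCT and endoplasmic reticulum lists, -0.25 for mitosis, -0.05 for replication, -0.09 for the proteasome, -0.07 for the respiratory chain, -0.01 for the tRNA synthetases and 0.31 for the B cell markers. The macrophage marker mean, as said, followed the diet closely. With it as a covariate the count of falls dropped by more than 1.5 times in several lists described below. It went from 29 to 18 for replication, 28 to 17 for mitosis, 43 to 28 for mitochondrial ribosomal proteins, 19 to 11 for glycolysis and 12 to 4 for cholesterol and fatty acid synthesis. It also went from 20 to 10 for the T cell receptor list, 15 to 7 for early response genes, 12 to 7 for glucocorticoid targets, 15 to 9 for lymph node retention, 14 to 7 for naive T cells, 14 to 3 for interferon, 20 to 9 for chromatin enzymes and 14 to 5 for apoptosis. Among the shorter lists, falls went from 5 to 1 (vitamin D), 3 to 1 (T helper 1), 4 to 2 (T helper 17) and 2 to 1 (regulatory), and rises from 6 to 2 (vitamin D), 5 to 2 (T helper 2), 6 to 1 (stromal) and 3 to 1 (dendritic cell).

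**Figure D3:**
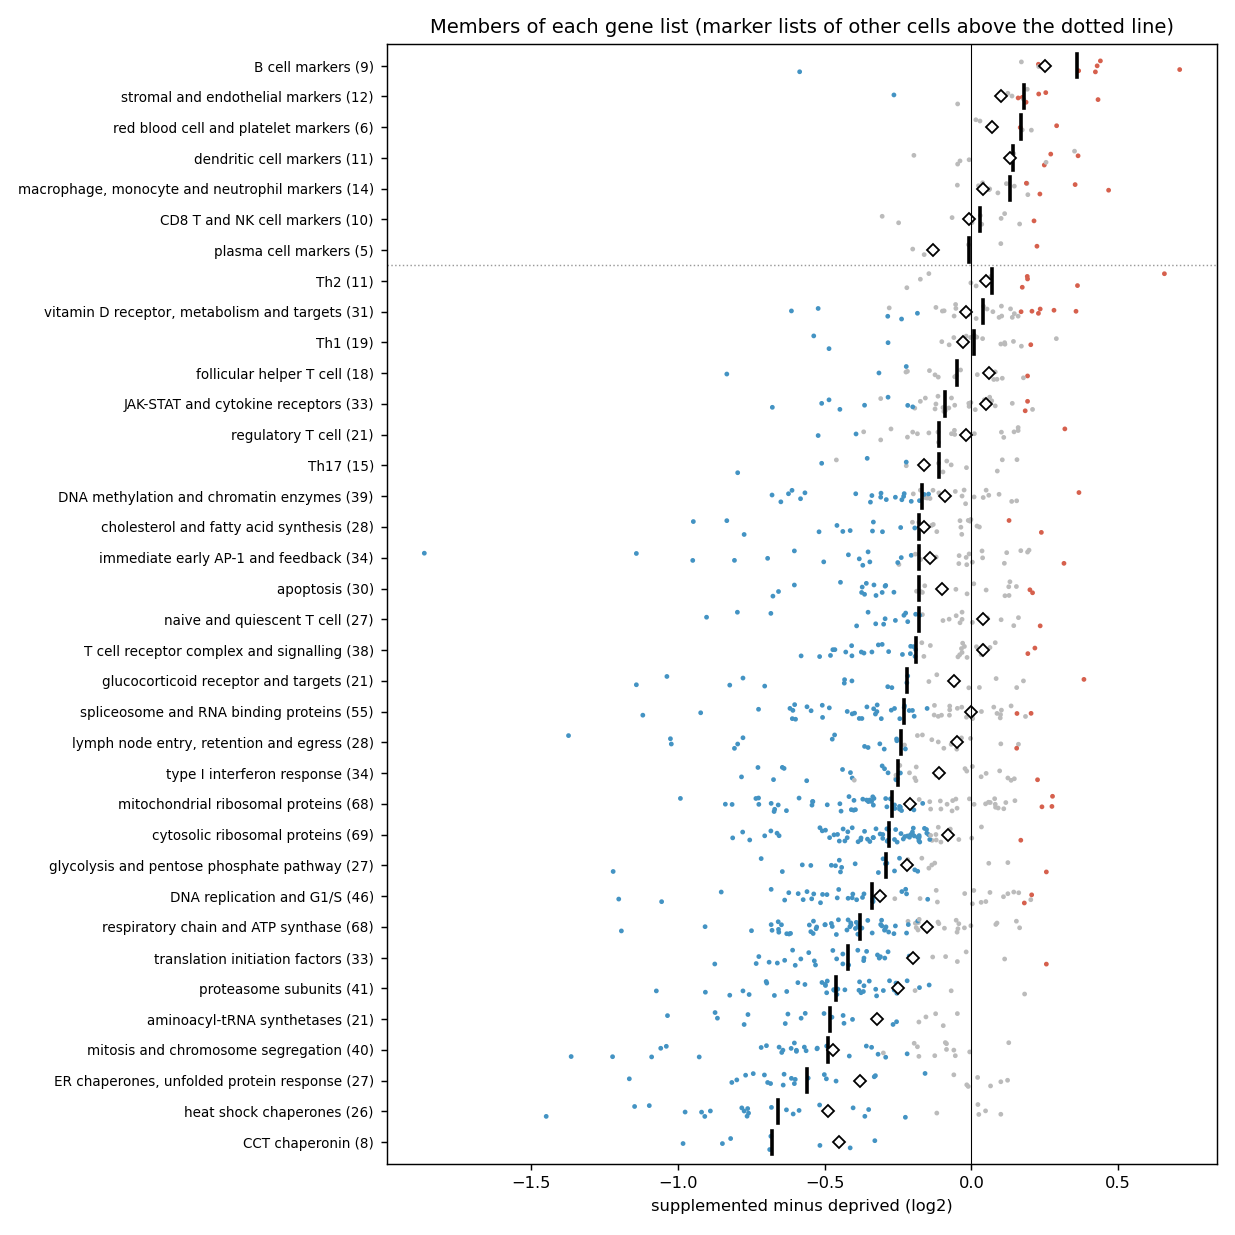
Each point is a tested member of a list, placed by its change (supplemented minus deprived, log2), red for genes that rose, blue for genes that fell and grey for those that did not pass; the number of tested members is in parentheses. Bars mark the list median and diamonds the median after quantile normalization. The chaperone, proteasome, protein synthesis and cell cycle lists lie to the left of 0 on both, from -0.68 for the CCT chaperonin, and the B cell markers lie to the right at 0.36.

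In the deposited values the 3 chaperone lists had the lowest medians of the 36; after quantile normalization the mitosis list (-0.47) lay below the CCT (-0.45) and endoplasmic reticulum (-0.38) lists. Of 26 heat shock chaperones tested, 21 fell, 0 rose and 5 did not pass (median -0.66, and between -0.49 and -0.76 under quantile normalization, cyclic loess, median centring and division by spread). After quantile normalization 19 were lower and 3 higher. The same count of 21 was reached without supplemented replicates 2 and 5. The 5 that did not pass were Bag3, Hsf1, Dnajb6, Trap1 and Hspbp1, with changes of -0.12 to 0.10. All 8 subunits of the CCT chaperonin, the barrel that folds actin and tubulin, fell (median -0.68), and 6 were lower after quantile normalization. In the endoplasmic reticulum list of chaperones and unfolded protein response genes, 20 of 27 fell, 0 rose and 7 did not pass (median -0.56), with 18 lower and 4 higher after quantile normalization.

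Promoter stretches of chaperones that fell are shown for a motif that heat shock genes are known to share. Its share in the list therefore follows in part from how such genes are classed. Of the 26 tested, 22 were found in the RefSeq promoter table of build GRCr8, which gives 250 bases before and 50 after each gene's start. A pair of inverted GAA units, GAANNTTC, the core of the element that heat shock factors bind, was in 12 of these 22 promoters (54.5%), against 8.34% of 27457 promoters and 5.71% of those of the genes tested. The 27457 are the promoter listed first for each gene, out of 33469 in the table, and are meant by all promoters below. The motif reads the same on both strands. It can overlap with the TTTGAA and CCGGAAG motifs searched below through a shared GAA. The capitals mark the GAANNTTC match, and each stretch is on the strand of the gene.
Hsph1: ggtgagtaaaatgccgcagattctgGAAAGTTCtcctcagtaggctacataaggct
Dnajb1: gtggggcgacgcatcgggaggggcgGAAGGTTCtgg
Dnaja1: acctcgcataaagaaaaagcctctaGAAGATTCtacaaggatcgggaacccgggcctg
Cacybp: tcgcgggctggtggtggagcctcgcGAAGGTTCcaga
Hspd1: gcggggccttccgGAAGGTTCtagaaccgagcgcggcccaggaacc
In order, these lie at chr12:10427312-10427367 (+), chr19:41431142-41431177 (-), chr5:60638198-60638255 (+), chr13:74981240-74981276 (-) and chr9:64084242-64084287 (-). A match is a description of letters and not evidence of binding. Over all genes that passed, the motif was about as frequent in those that fell (6.24% of 2660) as in those that rose (6.47% of 1576).

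Hsph1 encodes a nucleotide exchange factor for the Hsp70 chaperones. Its deprived values were 9.47, 9.53, 9.93, 10.1 and 9.56, and its supplemented values ran from 8.45 to 8.92 with a median of 8.61. The diets did not overlap, and Hsph1 fell by 1.10 (SE 0.11, n = 6 and 5, 2.14-fold, adjusted p = 2.33e-07). On the regular diet it read 8.68 to 9.03, close to the supplemented range, so most of the difference lay between deprived and regular rats (0.91, SE 0.11, adjusted p = 0.000124). Dnajb1, an Hsp40 co-chaperone and the chaperone with the largest fall, had deprived values of 9.03, 9.02, 9.39, 9.57 and 8.59 and supplemented values of 7.01 to 8.24 (median 7.75). It fell by 1.45 (SE 0.18, 2.73-fold, adjusted p = 1.82e-06) with no overlap.

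Other chaperone genes had smaller errors. Dnaja1, another Hsp40, lay at 11.61, 11.54, 11.65, 11.66 and 11.55 on deprived arrays and at 10.52 to 11.01 (median 10.69) on supplemented arrays, and it fell by 0.89 (SE 0.07, 1.85-fold, adjusted p = 1.24e-07). Cacybp, which binds the ubiquitin ligase Siah1, fell by 0.76 (SE 0.06, adjusted p = 1.24e-07). Hspd1, the mitochondrial chaperonin Hsp60, fell by 0.78 (SE 0.08, adjusted p = 2.33e-07), and Dnaja2 fell by 0.77 (SE 0.09). All 4 genes were lower on every supplemented array than on every deprived array. Against the regular diet, 10 of the 26 heat shock chaperones were higher in deprived rats and 0 lower, where 1.49% and 0.184% of all genes passed, and 18 were lower in supplemented rats, where 22.9% of all genes were lower.

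Among the CCT subunits, Cct8 read 10.65, 10.72, 10.7, 10.72 and 10.75 on deprived arrays and 9.59 to 10.09 (median 9.87) on supplemented arrays. It fell by 0.85 (SE 0.09, adjusted p = 3.24e-07), and Cct5, Cct2, Tcp1 and Cct4 fell by 0.82, 0.69, 0.68 and 0.52. Each of the 8 subunits had supplemented arrays wholly below the deprived ones, beside 17.7% of all genes.

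In the endoplasmic reticulum, the disulfide isomerases P4hb, Pdia6 and Pdia3 fell by 0.69 (SE 0.08), 0.64 (SE 0.07) and 0.61 (SE 0.08). Dnajb11, a co-chaperone of BiP, fell by 0.77 (SE 0.09, 1.7-fold, adjusted p = 1.22e-06), and its deprived values of 9.4, 9.67, 9.52, 9.63 and 9.55 stood above the supplemented range of 8.57 to 9.06. Dnajb9, a related co-chaperone that restrains the sensor Ire1, fell by 1.17 (SE 0.18, 2.24-fold, adjusted p = 2.32e-05) and was among the 15 largest falls, though 1 or more supplemented arrays reached the deprived range. Atf4, a transcription factor of the stress response, fell by 0.50 (SE 0.06) and the secreted protector Manf by 0.60 (SE 0.07). Xbp1, the transcription factor spliced by Ire1, did not pass (0.10, SE 0.09, adjusted p = 0.33), nor did the other sensors Atf6 (0.07) and Eif2ak3 (-0.01).

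The CCAAT box, CCAATCA on either strand, bound by NF-Y, was in 10 of 21 promoters of the endoplasmic reticulum list (47.6%), against 7.31% of all promoters and 9.19% of those of the genes tested. It is shown in Dnajb11, where it occurs as TGATTGG in capitals at both ends of the stretch at chr11:91672824-91673050 (-).
Dnajb11: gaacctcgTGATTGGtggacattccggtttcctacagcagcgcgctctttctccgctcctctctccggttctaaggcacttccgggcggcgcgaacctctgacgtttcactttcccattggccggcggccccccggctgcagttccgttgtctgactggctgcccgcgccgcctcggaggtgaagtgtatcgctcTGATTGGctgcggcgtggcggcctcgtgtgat

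Early response genes, lymph node retention genes and glucocorticoid targets share a few members, among them Cd69, Dusp1 and Cxcr4. Of 34 immediate early genes tested, which cells switch on within minutes of a stimulus and which include the AP-1 subunits, 15 fell, Fosl1 rose and 18 did not pass (median -0.18, after quantile normalization -0.14). Of 28 genes of lymph node entry, retention and egress, 15 fell, Fut7 rose and 12 did not pass (median -0.24, after quantile normalization -0.05 with 9 lower and 2 higher). Of 21 glucocorticoid receptor targets, 12 fell, Zbtb16 rose and 8 did not pass (median -0.22, after quantile normalization -0.06 with 8 lower and 3 higher, and after cyclic loess -0.01). The rise of Fut7 was not kept in every fit that left out an array, since the list then held 0 or 1 rises, and the early gene list held 1 or 2.

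Jun, the AP-1 subunit, was the gene with the largest change. It read 8.59, 8.79, 9.79, 9.86 and 8.66 on deprived arrays and 6.32 to 8.63 (median 7.26) on supplemented arrays, and it fell by 1.86 (SE 0.30, 3.64-fold, 95% interval -2.48 to -1.25, adjusted p = 3.53e-05). The highest supplemented array passed the lowest deprived one, so the groups overlapped. Dusp1, a phosphatase that switches off MAP kinases, fell by 1.14 (SE 0.20), Ppp1r15a by 0.69 (SE 0.14) and the survival gene Mcl1 by 0.60 (SE 0.12). The signal dampers Rgs2 and Rgs1 fell by 1.37 (SE 0.27) and 1.02 (SE 0.21), and in both the diets overlapped.

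Cd69 binds the egress receptor S1pr1 and keeps freshly activated T cells in the node. Its deprived values were 10.43, 10.34, 10.81, 10.62 and 10.73 and its supplemented values 9.53 to 10.01 (median 9.75), and it fell by 0.81 (SE 0.09, 1.75-fold, adjusted p = 8.46e-07) without overlap. Regular arrays read 9.83 to 10.14, and deprived rats stood 0.62 above them (SE 0.09, adjusted p = 0.00102), whereas supplemented and regular rats differed by -0.19 (adjusted p = 0.0926). Cxcr4, the receptor for Cxcl12 that guides lymphocytes in node and marrow, followed the same order, with 9.58, 9.51, 9.9, 9.64 and 9.64 in deprived rats, 8.70 to 9.00 (median 8.91) in supplemented rats and 8.96 to 9.11 in regular rats. It fell by 0.78 (SE 0.07, 1.71-fold, adjusted p = 1.73e-07). The inflammatory chemokine receptor Ccr2 fell by 1.02 (SE 0.19, 2.03-fold, adjusted p = 0.000182), with supplemented values of 6.61 to 7.81 that met the lowest deprived value of 7.81. S1pr1 itself (-0.17), Ccr7 (0.16) and Cd44 (0.00) did not pass.

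Tsc22d3, the glucocorticoid-induced leucine zipper, read 9.2, 8.99, 9.19, 8.8 and 8.95 on deprived arrays and 7.81 to 8.55 (median 8.17) on supplemented arrays. It fell by 0.82 (SE 0.11, 1.77-fold, adjusted p = 3.87e-06), and as with Cd69 the regular arrays (8.24 to 8.68) lay near the supplemented ones. Ddit4, an inhibitor of mTORC1, fell by 0.43 (SE 0.08, adjusted p = 0.000185), with deprived rats 0.55 above regular rats (SE 0.08, adjusted p = 0.000988) and supplemented rats 0.12 above them (adjusted p = 0.23). The small GTPase Rhob fell by 1.04 (SE 0.15) and the receptor co-chaperone Fkbp5 by 0.70 (SE 0.11). The receptor gene Nr3c1 did not pass (-0.12).

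**Figure D4:**
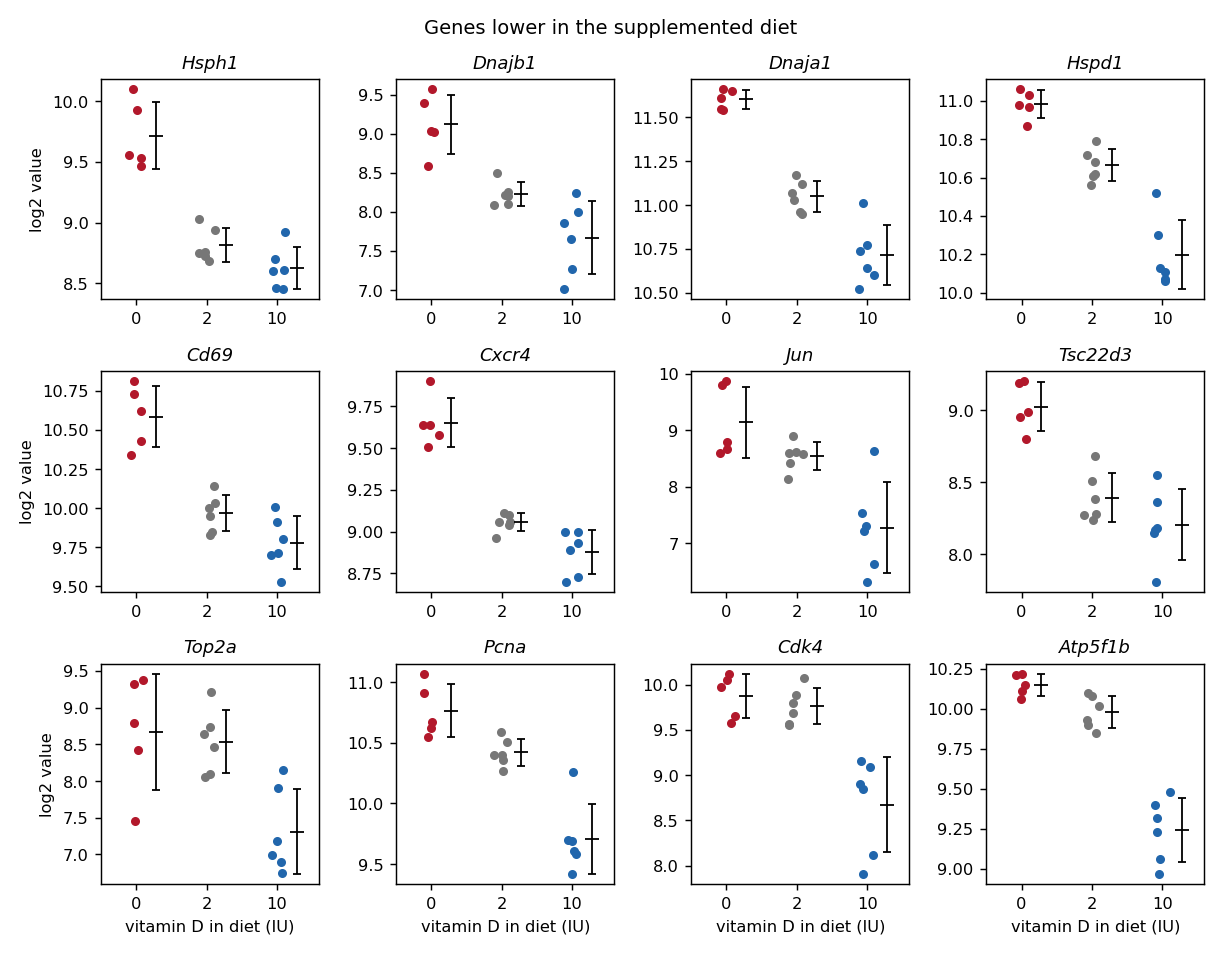
Log2 values of 12 genes that fell; each point is 1 array, by the IU of vitamin D in the diet, and bars give the mean and SD. Hsph1, Cd69, Cxcr4 and Tsc22d3 stand high on the deprived arrays with regular and supplemented arrays close together, whereas Top2a, Cdk4 and Atp5f1b stand low on the supplemented arrays with regular and deprived arrays close together.

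More cell cycle genes fell than rose. Of 46 genes of DNA replication and the G1/S step tested, 29 fell, Chaf1b and Gins2 rose by 0.18 and 0.20 and 15 did not pass (median -0.34, after quantile normalization -0.31 with 27 lower and 0 higher). Of 40 genes of mitosis and chromosome segregation, 28 fell, 0 rose and 12 did not pass (median -0.49, after quantile normalization -0.47). The mitosis median stayed between -0.44 and -0.59 under quantile normalization, cyclic loess, median centring, division by spread and without supplemented replicates 2 and 5. The mitosis count was 31 with the B cell marker mean as a covariate. It ranged from 19 to 29 when single arrays were left out, and the 2 replication rises became 0 to 3. Against the regular diet 0 genes of either list passed in deprived rats, and 24 replication and 25 mitosis genes were lower in supplemented rats, beside 22.9% of all genes.

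Pcna, the sliding clamp of DNA polymerase, read 10.55, 10.62, 10.91, 11.07 and 10.67 on deprived arrays and 9.42 to 10.26 (median 9.65) on supplemented arrays. It fell by 1.05 (SE 0.12, 2.08-fold, adjusted p = 6.08e-07) with no overlap. Cdk4, the kinase that opens the G1/S step, fell by 1.20 (SE 0.18, 2.3-fold, adjusted p = 1.71e-05), from 10.05, 10.12, 9.97, 9.65 and 9.58 to a supplemented range of 7.91 to 9.16. The primase Prim1, the helicase subunit Mcm7 and the clamp loader Rfc4 fell by 0.68 (SE 0.08), 0.64 (SE 0.10) and 0.57 (SE 0.09), each without overlap.

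Top2a, the topoisomerase that untangles replicated chromosomes, read 8.42, 9.38, 8.79, 9.32 and 7.45 on deprived arrays and 6.75 to 8.15 (median 7.08) on supplemented arrays. It fell by 1.36 (SE 0.29, 2.57-fold, 95% interval -1.97 to -0.75, adjusted p = 0.000791), and the groups overlapped. Tpx2, a spindle assembly factor, fell by 1.22 (SE 0.23), with overlap. The tubulin regulator Stmn1, the spindle protein Tacc3 and the condensin subunits Smc2 and Smc4 fell by 0.70, 0.60, 0.60 and 0.49 without overlap. Foxm1, a transcription factor of mitotic genes, did not pass (0.13), nor did Cdc20 (-0.09) or Ccna2 (-0.12). Over the list, the diets did not overlap for 5 of 40 mitosis genes and for 18 of 46 replication genes, beside 17.7% of all genes.

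Promoter stretches of cell cycle genes are shown for motifs that such genes are known to share. The E2F motifs TTTCCCGC and TTTGGCGC, on either strand, were in 6 and 7 of 39 replication promoters (15.4% and 17.9%). They were in 1.03% and 0.521% of all promoters and in 1.91% and 0.866% of those of the genes tested. The TTTGAA core of the cell cycle homology region was in 22 of 33 mitosis promoters (66.7%), against 18.1% of all and 11.9% of those of the genes tested, and CCAATCA in 11 of them (33.3%). In the stretches, capitals mark an E2F match and a pair of CCAAT boxes in Mcm7, and a CCAAT box followed by TTTGAA or its complement in Top2a and Tacc3.
Mcm7: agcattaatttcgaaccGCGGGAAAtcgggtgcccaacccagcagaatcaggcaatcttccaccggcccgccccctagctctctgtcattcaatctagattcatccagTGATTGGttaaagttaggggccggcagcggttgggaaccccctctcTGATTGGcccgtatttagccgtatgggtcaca
Top2a: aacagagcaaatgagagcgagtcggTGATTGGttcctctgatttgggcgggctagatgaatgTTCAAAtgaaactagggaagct
Tacc3: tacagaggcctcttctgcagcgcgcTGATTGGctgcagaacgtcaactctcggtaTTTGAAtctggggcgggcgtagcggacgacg
They lie at chr12:22163243-22163428 (-), chr10:84473094-84473177 (-) and chr14:81289710-81289795 (-) of GRCr8. Over all genes that passed, TTTCCCGC was in 2.56% of promoters of genes that fell and 1.08% of those that rose, with 1.91% among all genes tested. The ETS motif CCGGAAG was in 23.7% and 6.92%, with 16.3% among all genes tested. Falls were more frequent among bright genes and rises among dim ones, as the deciles of level show. The motif shares were not compared among genes of like level, and a link with the diet was not tested.

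Most tested genes of the protein synthesis lists fell in the deposited values. Of 33 translation initiation factors 27 fell, Eif4ebp1, a repressor of cap-dependent translation, rose by 0.26 and 5 did not pass (median -0.42, after quantile normalization -0.20 with 21 lower and 4 higher). Of 21 aminoacyl-tRNA synthetases and their scaffolds, which charge tRNAs, 16 fell, 0 rose and 5 did not pass (median -0.48, after quantile normalization -0.32). Of 69 cytosolic ribosomal proteins 58 fell, Rpl29 rose and 10 did not pass, with a median of -0.28 that was -0.08 after quantile normalization, -0.06 after division by spread and turned to 0.02 after cyclic loess. These are among the brightest genes (mean level 11.9), and after quantile normalization 22 were lower and 4 higher. Of 68 mitochondrial ribosomal proteins 43 fell, Mrps11, Mrps10 and Mrpl30 rose and 22 did not pass (median -0.27, after quantile normalization -0.21). These few rises were near the threshold, with 0 or 1 in the cytosolic list and 1 to 3 in the mitochondrial list when single arrays were left out.

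Eif2s2 and Eif2s1, subunits of the factor that brings the initiator tRNA, fell by 0.64 (SE 0.07) and 0.53 (SE 0.06), and Eif3e, Eif3i and Eif3d of the large scaffold factor by 0.69, 0.61 and 0.87. Aimp1, a scaffold of the synthetase complex, read 9.72, 9.71, 9.78, 9.48 and 9.46 on deprived arrays and 8.21 to 8.89 (median 8.63) on supplemented arrays, and it fell by 1.03 (SE 0.11, 2.05-fold, adjusted p = 3.44e-07). The synthetases Tars1, Qars1, Sars1 and Eprs1 fell by 0.87, 0.86, 0.77 and 0.62. Of the ribosomal proteins with the smallest p, Rpl6 and Rps3 fell by 0.78 (SE 0.08) and 0.76 (SE 0.09), Rpl11 by 0.66 (SE 0.09), and Rpl4 and Rpl3 by 0.45 and 0.42, each with SE 0.06. Ribosomal protein genes have many processed copies in the genome, so the signal of a gene may include a copy. In the mitochondrion Mrpl15 fell by 0.99 (SE 0.11), Mrps33 by 0.84 (SE 0.08), Mrps23 by 0.73, and Mrps35 and Mrpl47 by 0.67.

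Nearly all proteasome genes fell, while the direction of the RNA splicing list depended on the scaling. Of 41 proteasome subunits 38 fell, 0 rose and 3 (Psmd7, Psmd10 and Psmd5) did not pass. The median of -0.46 was -0.25 by quantile normalization (24 lower, 0 higher) and by cyclic loess. For 32 of the 41 the supplemented arrays lay wholly below the deprived ones, beside 17.7% of all genes. The lid subunit Psmd6 read 10.02, 9.92, 9.86, 9.87 and 9.97 on deprived arrays and 9.00 to 9.28 (median 9.22) on supplemented arrays, and it fell by 0.76 (SE 0.07, 1.69-fold, adjusted p = 1.34e-07). Psma4, Psmd1, Psmb7 and Psmc5, of the core and the cap, fell by 0.91, 0.82, 0.70 and 0.57. Of 55 spliceosome and RNA binding proteins 33 fell, Snrnp70 and U2af2 rose and 20 did not pass, with a median of -0.23 that went to 0.00 after quantile normalization, with 15 lower and 13 higher, and turned to 0.03 after cyclic loess, with 14 lower and 16 higher. The Sm ring proteins Snrpd2 and Snrpd1 fell by 1.12 (SE 0.12) and 0.92 (SE 0.10), the RNA binding protein Ybx1 by 0.72 (SE 0.08), and Hnrnpf and Hnrnpr by 0.60 and 0.51. The serine-arginine splicing factors Srsf1 (-0.07), Srsf2 (0.10), Srsf3 (-0.03) and Srsf7 (0.00) did not pass. The rises in this list numbered 0 to 4 when single arrays were left out.

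Among genes of energy metabolism more fell than rose. Of 68 respiratory chain and ATP synthase genes 49 fell, 0 rose and 19 did not pass (median -0.38, after quantile normalization -0.15 with 30 lower and 3 higher). Atp5f1b, the catalytic subunit of ATP synthase, read 10.21, 10.15, 10.22, 10.11 and 10.06 on deprived arrays and 8.97 to 9.48 (median 9.28) on supplemented arrays, and it fell by 0.91 (SE 0.08, 1.87-fold, adjusted p = 1.24e-07). Ndufa9, Ndufb9 and Ndufa2 of complex I fell by 1.19 (SE 0.13), 0.75 (SE 0.09) and 0.68 (SE 0.07), Cox4i1 of complex IV by 0.66 (SE 0.07), and the electron carrier Cycs by 0.66 (SE 0.09). For Atp5f1b and Ndufa9, deprived and regular rats differed by 0.17 (adjusted p = 0.294) and 0.05 (adjusted p = 0.886).

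Of 27 genes of glycolysis and the pentose phosphate pathway 19 fell, Aldoc rose and 7 did not pass (median -0.29, after quantile normalization -0.22). Pgk1, which makes the first ATP of glycolysis, read 9.94, 10.14, 9.92, 9.95 and 9.89 on deprived arrays and 8.43 to 9.33 (median 8.63) on supplemented arrays, and it fell by 1.22 (SE 0.12, 2.33-fold, adjusted p = 2.91e-07). Gpi, Pkm and Pfkp fell by 0.72, 0.55 and 0.46, and Taldo1 of the pentose pathway by 0.64. The glucose transporters Slc2a1 (-0.17) and Slc2a3 (-0.14) did not pass. Of 28 cholesterol and fatty acid synthesis genes 12 fell, Mvd and Mvk rose and 14 did not pass (median -0.18, after quantile normalization -0.16). Fdps, which makes farnesyl diphosphate, fell by 0.95 (SE 0.11, 1.93-fold, adjusted p = 1.05e-06), Insig1, the sterol sensor's anchor, by 0.83 (SE 0.12), Idi1 by 0.77, Pmvk by 0.52 and Cyp51 by 0.46. Without single arrays the glycolysis list held 0 or 1 rises and the cholesterol list 1 or 2.

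Signalling of the T cell receptor and cytokine receptors gave mixed lists. Of 38 T cell receptor genes 20 fell, Pag1 and Nfatc3 rose and 16 did not pass, with a median of -0.19 that turned to 0.04 with quantile normalization and 0.06 with cyclic loess, with 14 higher and 7 lower under the former and 14 and 6 under the latter. Bcl10, which links the receptor to NF-kappaB, fell by 0.52 (SE 0.08), the phosphatase Ptpn6 by 0.48, the exchange factor Vav1 and the adaptor Skap1 by 0.47, and Cd3d by 0.41 (SE 0.06). The kinase Zap70 (-0.04) and the adaptor Lat (0.04) did not pass. Of 33 JAK-STAT and cytokine receptor genes 8 fell, Socs6 and Il4r rose and 23 did not pass (30.3% called, under the 47.2% of all genes), with a median of -0.09 that turned to 0.05 after quantile normalization (6 higher, 5 lower) and cyclic loess (7 higher, 5 lower). The kinases Jak2 and Jak1 fell by 0.68 (SE 0.09) and 0.45 (SE 0.07) without overlap. Of 27 genes of naive and quiescent T cells 14 fell, Foxp1 rose and 12 did not pass (median -0.18). The direction of this list turned to 0.04 with quantile normalization, with 7 higher and 5 lower, and to 0.06 with cyclic loess, with 8 higher and 5 lower. Tob1, a brake on T cell division, fell by 0.90 (SE 0.10, 1.87-fold, adjusted p = 6.02e-07), Pik3ip1, a brake on PI3 kinase, by 0.80 (SE 0.13), Gimap9 by 0.68 (SE 0.08), Slfn2 by 0.39 and Gimap4 by 0.29. Leaving out single arrays gave 1 or 2 rises in the T cell receptor list, 0 to 3 in the JAK-STAT list and 1 or 2 in the naive list.

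Of 34 type I interferon response genes 14 fell, Irf7 rose and 19 did not pass (median -0.25, after quantile normalization -0.11 with 9 lower and 3 higher). The kinase Eif2ak2, which senses double-stranded RNA, fell by 0.67 (SE 0.12), Bst2 by 0.56, Trim25 by 0.44, Ifi35 by 0.41 and Ifi44l by 0.30. The count that fell was 22 with the B cell marker mean as a covariate. Of 39 DNA methylation and chromatin enzymes 20 fell, Sirt6 rose and 18 did not pass (median -0.17, after quantile normalization -0.09 with 10 lower and 4 higher). Prmt1, the main arginine methyltransferase, fell by 0.68 (SE 0.07), the deacetylases Hdac2 and Hdac1 by 0.65 and 0.61, Hat1 by 0.58 and the Polycomb subunit Eed by 0.57. Of 30 apoptosis genes 14 fell, Casp6 and Hrk rose and 14 did not pass (median -0.18, after quantile normalization -0.10 with 6 lower and 2 higher). The inhibitors of cell death Bcl2a1, Birc2 and Xiap fell by 0.68, 0.37 and 0.33. Leaving out single arrays gave 1 or 2 rises in the interferon and chromatin lists and 0 to 4 in the apoptosis list.

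Of 31 vitamin D receptor, metabolism and target genes tested, 6 rose, 5 fell and 20 did not pass. Thus 35.5% were called, beside 47.2% of all genes (18.6% higher and 28.6% lower). The median of 0.04 turned to -0.02 after quantile normalization, -0.01 after cyclic loess, -0.06 after median centring and -0.05 after division by spread. Quantile normalization gave 5 rises and 1 fall, and median centring 2 rises and 8 falls. Of the other measured members of this list, 9 lay below the level filter, among them Cyp24a1 with a mean of 4.73. Vdr, the receptor, read 5.32, 5.25, 5.46, 5.34 and 5.35 on deprived arrays and 5.33 to 5.78 (median 5.40) on supplemented arrays, near the filter, and did not pass (0.10, SE 0.07, adjusted p = 0.254). Tnfrsf11b, the decoy receptor osteoprotegerin, rose by 0.36 (SE 0.06, adjusted p = 8.85e-05) and Spp1, osteopontin, by 0.28 (SE 0.07), both from dim levels and without overlap. The other rises were in Cyp27b1 (0.17), the enzyme that makes calcitriol, and in Med1, Bmp6 and Trpv5 (0.21, 0.23 and 0.23). Pdia3, the coactivators Ncoa3 and Ncoa2, Txnip and Ctla4 fell by 0.61, 0.24, 0.18, 0.28 and 0.52. The count of falls was 3 without deprived replicate 3 or supplemented replicate 5.

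Of 11 T helper 2 genes tested, 5 rose, 0 fell and 6 did not pass in the deposited values (median 0.07, turning to -0.04 after median centring and -0.10 with the macrophage covariate). Other settings gave falls as well: 4 were higher and 1 lower after quantile normalization, 3 and 1 after cyclic loess, 2 and 2 after median centring, and 2 and 1 after division by spread and with the macrophage covariate. With the B cell covariate 1 was higher and 1 lower. A fit of only the 11 arrays compared gave 2 higher and 0 lower. Il13, a cytokine of allergic and anti-worm responses, read 5.92, 6.13, 5.87, 6.16 and 5.92 on deprived arrays and 6.37 to 7.04 (median 6.66) on supplemented arrays. It rose by 0.66 (SE 0.10, 1.58-fold, adjusted p = 1.21e-05), with no overlap. The regular arrays (6.27 to 6.51) overlapped the supplemented range. Their mean lay between, below the supplemented mean by 0.25 (adjusted p = 0.0361) and above the deprived mean by 0.41 (adjusted p = 0.0335). Il24 rose by 0.36 (SE 0.09), and Il4r, Il9 and Areg by 0.19, 0.19 and 0.17. These last 3 were near the threshold: without single arrays they lost the call in 5, 7 and 6 of 11 fits (adjusted p up to 0.0919, 0.115 and 0.0933), and the count of rises was 2 without deprived replicate 5 and 3 without deprived replicate 2, 3, 4 or 6 or supplemented replicate 5 or 6. Without deprived replicate 5 or supplemented replicate 4 or 5, 1 gene of the list was lower. Gata3, the master regulator, did not pass (0.02, SE 0.09, adjusted p = 0.896), and Il4 (4.77) and Il5 (4.69) lay below the level filter.

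Of 19 T helper 1 genes Ifngr1, Stat4 and Il18r1 fell, Il12rb1 rose and 15 did not pass (median 0.01, turning to -0.03 after quantile normalization). Thus 21.1% were called, beside 47.2% of all genes. Ifngr1, a chain of the interferon gamma receptor, read 9.06, 9.14, 9.01, 9.08 and 8.98 on deprived arrays and 8.38 to 8.77 (median 8.56) on supplemented arrays, and it fell by 0.48 (SE 0.07, 1.4-fold, adjusted p = 2.68e-05). Stat4 fell by 0.28 (SE 0.06) and Il18r1 by 0.54 (SE 0.12). The call of Il12rb1 (0.20, SE 0.08) was lost in 8 of 11 fits that left out an array (adjusted p up to 0.169). Tbx21, the master regulator, did not pass (0.11, SE 0.08, 95% interval -0.05 to 0.28, adjusted p = 0.242), nor did Ifng (-0.02, SE 0.13, adjusted p = 0.918) or Il2 (0.02, SE 0.11, adjusted p = 0.901), both dim.

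Of 15 T helper 17 genes 4 fell, 0 rose and 11 did not pass (median -0.11, after quantile normalization -0.16). The 26.7% called, all lower, stand beside 28.6% of all genes lower and 47.2% called. Ccr6, the chemokine receptor of these cells, fell by 0.80 (SE 0.21, 1.74-fold, adjusted p = 0.00408), from 7.87, 8.71, 7.95, 8.52 and 7.91 to a supplemented range of 6.88 to 8.21 (median 7.28), with overlap. Stat3, which carries the Il6 and Il23 signals, fell by 0.51 (SE 0.10, adjusted p = 0.000457), Hif1a by 0.35 (SE 0.07) and Il6r by 0.22 (SE 0.09). Il6r lost the call in 6 of 11 fits that left out an array. Il17a did not pass (-0.08, SE 0.11, 95% interval -0.32 to 0.15, adjusted p = 0.548).

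Of 21 regulatory T cell genes Nt5e and Ctla4 fell, Gpr83 rose and 18 did not pass (median -0.11, after quantile normalization -0.02), so 14.3% were called beside 47.2% of all genes. Foxp3, the lineage regulator, read 7.94, 8.08, 8.18, 7.87 and 7.74 on deprived arrays and 7.67 to 8.07 (median 7.97) on supplemented arrays, and did not pass (-0.06, SE 0.10, 95% interval -0.26 to 0.15, adjusted p = 0.643). Nt5e, the ectoenzyme CD73, fell by 0.39 (SE 0.06, adjusted p = 3.24e-05). Ctla4 fell by 0.52 (SE 0.21, adjusted p = 0.0435) and lost the call in 7 of 11 fits that left out an array. The count of falls was 5 without deprived replicate 6 or supplemented replicate 3 and 1 without deprived replicate 3, 4 or 5 or supplemented replicate 1, 4 or 5. Of 18 follicular helper genes Cd40lg, Slamf1 and Il6r fell, Pdcd1 rose and 14 did not pass, so 22.2% were called. The median of -0.05 turned to 0.06 after quantile normalization and cyclic loess, each with 4 higher and 2 lower. The list held 0 to 2 rises and 2 to 4 falls when single arrays were left out. Cd40lg, the ligand by which helper cells license B cells, read 9.92, 9.99, 10.01, 9.83 and 10.05 on deprived arrays and 8.71 to 9.56 (median 9.12) on supplemented arrays, and it fell by 0.83 (SE 0.11, 1.78-fold, adjusted p = 6.41e-06) without overlap.

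**Figure D5:**
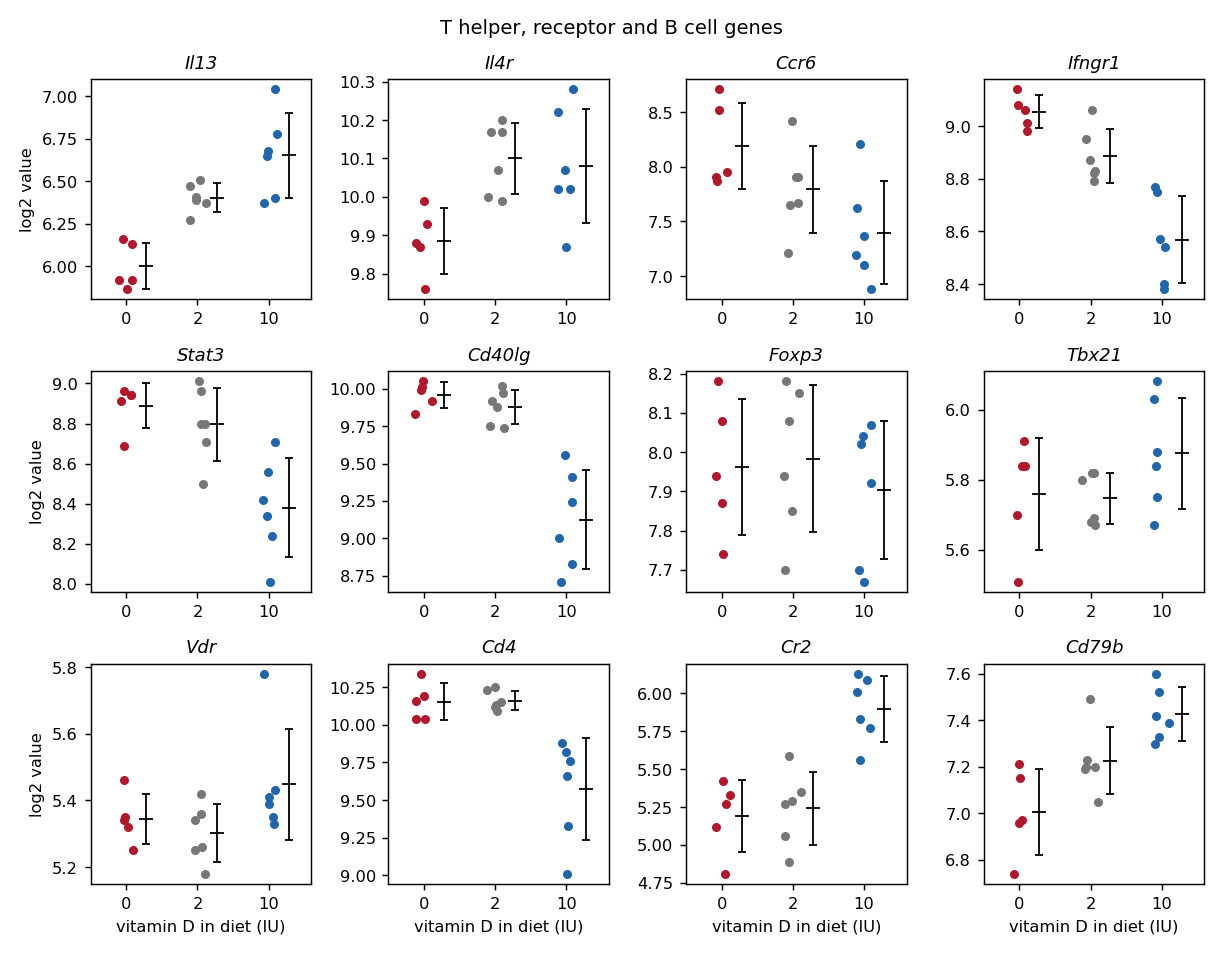
Log2 values of 12 genes by the IU of vitamin D in the diet; each point is 1 array and bars give the mean and SD. Il13 and Cr2 lie higher, and Cd40lg, Ifngr1 and Cd4 lower, on every supplemented array than on every deprived array, while Foxp3, Tbx21 and Vdr overlap.

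The remaining genes among the 15 largest falls had varied functions. Ccdc107 fell by 1.69 (SE 0.29, 3.22-fold, adjusted p = 9.99e-05), from 10.22, 10.46, 10.34, 10.15 and 10.52 to a wide supplemented range of 7.25 to 9.90 (median 8.77). Nsmce3, a subunit of the SMC5/6 complex that guards DNA repair, fell by 1.29 (SE 0.12) and Cmc1, an assembly factor of complex IV, by 1.31 (SE 0.12), both without overlap. Nucb2, a calcium binding protein, fell by 1.28 (SE 0.19), the mitochondrial Fam162a by 1.20 (SE 0.13), and Rpph1, the RNA of RNase P, by 1.16 (SE 0.19). Of the 58 genes past 2-fold, 22 were members of a list, among them 4 chaperones and 7 replication or mitosis genes. Of the 14506 genes measured, 1037 were in a list. The lists were chosen with earlier results of these data known, so these counts are a description only.

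The 15 largest rises were all under 2-fold. Sert1 had the largest, 0.90 (SE 0.18, 1.87-fold, adjusted p = 0.000356), from 7.57, 6.88, 7.1, 7.19 and 7.27 to 7.57 to 8.76 (median 8.09), with the groups meeting at 7.57. Cr2, complement receptor 2 of B cells and follicular dendritic cells, read 5.42, 4.81, 5.12, 5.33 and 5.27 on deprived arrays and 5.56 to 6.13 (median 5.92) on supplemented arrays, and it rose by 0.71 (SE 0.12, 1.63-fold, adjusted p = 8.37e-05) without overlap. Bcl11a, a transcription factor of B cell and dendritic cell precursors, rose by 0.59 (SE 0.09), and Rarres2, the chemoattractant chemerin, by 0.63 (SE 0.07). The nonclassical MHC genes RT1-M6-1 and RT1-M1-2 rose by 0.74 and 0.65, and the olfactory receptor genes Or4p19, Or1f28 and Or1f21 by 0.74, 0.66 and 0.64. Prp15 (0.78), Ube2w (0.76), Stx19 (0.68), Prss3bl1 (0.68) and Fam25a (0.64) completed the 15. Prss3bl1 stood out against the regular diet, whose arrays (6.26 to 7.23) all lay below the supplemented ones (7.67 to 8.20), with supplemented rats 1.18 above it (adjusted p = 4.39e-06).

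Among the markers of other cells, the B cell genes Cd72, Cd79b, Fcrla, Spib and Blk rose by 0.43, 0.42, 0.44, 0.36 and 0.23 beside Cr2, and Cd22, also a B cell gene, fell by 0.58 (SE 0.22), a call that was lost without deprived replicate 2, 3, 4 or 5 or supplemented replicate 1, 2 or 5. Cd79b, a chain of the B cell receptor, read 6.74, 6.97, 6.96, 7.15 and 7.21 on deprived arrays and 7.30 to 7.60 (median 7.41) on supplemented arrays, without overlap. The B cell median stayed between 0.24 and 0.26 under the 4 scalings, with 5 members higher under each; with array spread as a covariate it was 0.31 and 0 members passed. Of 12 stromal and endothelial markers 6 rose, Pecam1 fell and 5 did not pass (median 0.18, after quantile normalization 0.10 with 3 higher and 0 lower, after median centring 1 higher and 2 lower), led by the chemokine Ccl21 (0.43, SE 0.10), and the count of rises was 3 without deprived replicate 3 or 4. Of 14 macrophage, monocyte and neutrophil markers Lst1, Tyrobp, Spi1 and Mrc1 rose by 0.47, 0.35, 0.23 and 0.19, a count that was 2 without deprived replicate 2 and under each of the 4 scalings. Of 11 dendritic cell markers Ciita, RT1-Bb and Flt3 rose by 0.27, 0.36 and 0.25, and Cd74 (-0.04) did not pass; 2 were higher and 1 lower after quantile normalization. Of 10 markers of CD8 T and NK cells Ncr1 rose and 9 did not pass (2 higher and 1 lower after quantile normalization, 0 and 2 after median centring), among them Cd8a (-0.30, SE 0.14, adjusted p = 0.0745). Of 5 plasma cell markers Sdc1 rose and 4 did not pass, while after quantile normalization 0 were higher and 1 lower. Of 6 red blood cell and platelet markers Ppbp and Gp9 rose (33.3%, mean level 6.26), while 36% of all genes at levels of 5.99 to 6.32 rose. Leaving out single arrays gave 0 to 2 rises among the CD8 and NK markers, 0 or 1 among the plasma cell markers and 1 to 3 among the red blood cell and platelet markers. The part of these cells in the changes above was not tested beyond the B cell and macrophage marker covariates given, both of which followed the diet.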

How the data were processed

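RNA of CD4+ T cells from 17 samples was hybridised to whole-transcript arrays, 1 array per sample. The deposited table holds log2 expression values of 29214 transcript clusters, which the authors made with RMA in Partek 6.0, per the submitters' processing notes; the log base was inferred from values of 2.14 to 13.8, with the probe file, genome build and annotation not given in the sources used here. RMA corrects background, equalises array distributions and summarises probes, but the arrays' spreads still differed in the deposited table, so that step's details stay unknown. All 17 columns were matched to samples by title, and 0 columns of values were unused. The 15310 clusters with 1 gene symbol were named from the platform annotation, 323 with several symbols and 13581 not listed were left out, and 15279 were matched to RefSeq GRCr8 by Entrez identifier. Each gene kept its cluster of highest mean, and the dimmest 25% of genes were not tested. Among the 302 called genes with several clusters, 36 had a cluster of the other sign.

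Changes were fitted in R 4.3.3 with limma 3.58.1 (lmFit and eBayes, 14 residual degrees of freedom, 3 diets, no covariate) with Benjamini-Hochberg adjustment over all 10879 genes, and genes with an adjusted p under 0.05 were called; the code was tested on simulated data. Precision is limited by the number of arrays; the median SE of a change was 0.078. Arrays correlated at 0.9773 to 0.9954 and none were identical. The comparison and the gene lists were chosen with earlier results of these data known. Genes were named by rule: the 15 largest rises and falls that passed, up to 5 members with the smallest p in each list, and a set of key genes; other members named for being the few that rose, fell or did not pass, the promoters printed and the families of genes in the closing section were chosen after their values were seen. Alternatives were other normalizations, filters, cluster choices, variance models, covariates, a replicate block and leaving out arrays.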

Additional observations from a re-analysis of the deposited data

Results flagged for a closer look

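Among 370 groups of arrays checked for the genes named above, 21 values of single arrays stood apart from the others of their diet by Dixon's criterion; chance flags about 1 in 20 groups. On deprived arrays, Bcl10 was low in replicate 2 (7.09), Birc2 high in replicate 4 (9.66), Ccl21 low in replicate 6 (5.46), Ddit4 low in replicate 5 (8.63) and Hdac1 low in replicate 4 (9.95). Also on deprived arrays, Ifng (5.06) and Il24 (4.87) were low in replicate 2, Pgk1 was high in replicate 3 (10.14), Sdc1 low in replicate 4 (6.41), Spp1 high in replicate 5 (5.97), and in replicate 6 Stat3 was low (8.69) and Xiap high (9.07). On supplemented arrays, Gp9 (7.04) and Il24 (5.14) were low in replicate 1, Psmb7 (9.47) and Taldo1 (7.31) low and Vdr (5.78) high in replicate 2, and Hnrnpr low in replicate 4 (9.68). In supplemented replicate 3, Pcna (10.26), Rgs2 (9.04) and Tob1 (7.18) were high, each nearer to the deprived values than the other supplemented arrays were.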

How the results depend on the processing

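The count of 5132 changed genes, of 10879, moved by more than 1.5 times under 4 alternatives. All transcript clusters without a filter gave 10785 of 29214, which is a smaller share. The array spread as a covariate gave 0, the macrophage marker mean as a covariate 2369, and a 2-fold minimum 58. Leaving out single arrays gave 4451 to 5444 calls, and the replicate block 5332. The replicate numbers did not pair the samples, since the deviations of same-numbered deprived and supplemented arrays correlated at -0.114, 0.195, 0.052, 0.153 and -0.079 for replicates 2 to 6 and only 2 of the 5 correlated best with their own number. Scaling moved the split of calls: cyclic loess gave 1370 higher and 2163 lower, median centring 607 and 4177, and division by spread 790 and 3136 (20.1% higher); leaving out the dimmer 50% of genes gave 785 and 3033 (20.6% higher). The difference in array spread was -0.207 by the interquartile range, -0.152 over the genes tested and -0.101 to -0.114 without single arrays. Under quantile normalization (0.02) and cyclic loess (0.03) the change of Cd3e reversed. Of 178 calls among the genes named by rule, 177 kept their direction under each of these, but only 152 and 150 still passed. After median centring 164 passed, after division by spread 159, and with the macrophage marker mean as a covariate 142. With the spread as a covariate, which cannot be told apart from diet, further changes reversed and none passed: Areg (-0.04), Birc2 (0.03), Ccdc107 (0.24), Ccr6 (0.01), Cd3e (0.16), Cd4 (0.18), Cdk4 (0.20), Fam25a (-0.10), Gp9 (-0.09), Gpi (0.25), Il18r1 (0.09), Il6r (0.32), Il9 (-0.10), Mrc1 (-0.11), Ncoa3 (0.19), Ncr1 (-0.01), Pdcd1 (-0.01), Pecam1 (0.37), Pkm (0.12), RT1-M1-2 (-0.20), Sdc1 (-0.19), Spp1 (-0.05), Stat3 (0.04), Stat4 (0.03), Trim25 (0.18), Txnip (0.09) and Ube2w (-0.06). The cause was not tested.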

Other observations

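Olfactory receptor genes and keratins are families outside the lists and were chosen after their values were seen. Of 1105 olfactory receptor genes measured, 161 passed the level filter, and of these 67 rose (41.6%) and 0 fell, with a median change of 0.16 at a median level of 5.75; after quantile normalization 24 were higher and 2 lower, with a median of 0.04. Of 53 keratins and keratin-associated proteins measured, 36 passed the filter, and of these 25 rose (69.4%) and 0 fell (median 0.26 at a median level of 6.2, after quantile normalization 15 higher and 0 lower, median 0.16). Beside these, 18.6% of all genes tested rose, and 32%, 36.6% and 36% of those in the 3 dimmest deciles by level, each with a median change of 0.14.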
